A study of Homo sapiens
Mus musculus with 6 samples.

Results

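Histones are the proteins around which DNA is wound, and their genes were examined in the tumour cells and in the host of HT29 xenografts. The genes were chosen by symbol, as those that begin with HIST and a cluster number, with H2AF, with H3F3 or with H1F. This gave 191 of the 106631 genes listed in both species' tables, 105 of 63652 in the human table and 86 of 42979 in the mouse table, after 1 row was kept per symbol (of 124 and 101 matching rows). By symbol, 71 human and 68 mouse genes were replication-dependent histone genes (the HIST genes), and 16 human and 17 mouse genes were variant histone genes. The remaining 18 human entries and 1 mouse entry were pseudogenes or the antisense gene H1FX-AS1, and they were set apart.

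HT29 is an established cell line from a human colorectal cancer, and here it was grafted under the skin of nude mice, which lack a thymus, and left to grow for 4 weeks. In 3 tumours the HT29 cells overexpressed mouse laminin alpha 1, one of the chains of the laminin trimers in basement membranes, and 3 tumours were controls. The tumours of each group are described as independent of each other. The labels do not give the promoter, the vector or whether 1 clone was used, nor what the control cells carried.

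Replication-dependent histone genes lie in clusters and are switched on in S phase, when new DNA has to be packed. Their mRNAs end in a stem-loop that is bound by SLBP in place of a poly-A tail, so libraries made from oligo-dT purified mRNA, as these were, hold little of them. Some of these genes, among them HIST1H1C, HIST1H2AC, HIST1H2BD, HIST1H2BK and HIST2H2BE, are known to give poly-A transcripts as well, mainly in cells that have left the cell cycle or differentiated. Variant histone genes lie outside the clusters, are expressed throughout the cell cycle and make ordinary poly-A mRNAs.

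Each table held 1 value per group, set by the authors and levels are stated in ppm, the parts per 1000000 of the signal summed over its table. The values follow read numbers and are not corrected for gene length, so the groups are compared for each gene, and where genes are ordered or summed by signal this is a share of reads and not of molecules. No SD between tumours can be given for them. Significance is that of the authors' test, as an adjusted p (Benjamini-Hochberg over the 25838 tested human genes) or as the authors' q-value in the mouse table, with a threshold of 0.05. At 1 ppm a human gene rested on about 79.4 reads in laminin tumours and 76.7 in control tumours, and a mouse gene on about 5.71 and 6.53 reads, all 3 tumours of a group together. In the mouse laminin tumours 1 read was worth 0.103 to 0.254 ppm, depending on the tumour. Read numbers estimated for that group are therefore rough. Of the 8 tumour epithelium markers fixed for a check, each was above 50 ppm in the human table, while in the mouse table they summed to 9.12 ppm in laminin and 59.6 ppm in control tumours. Cdh1 (34.0 ppm) and Epcam (19.2 ppm) made most of this control sum. In laminin tumours they had 3.44 and 0.506 ppm, and Cdh1 passed the authors' test (q = 0.00238) while Epcam did not. Mouse Krt8 and Krt18 were at 0 ppm in laminin tumours and at 0.455 and 1.07 ppm in control tumours. Of the 12 stroma markers, 2 were listed at 0 in both groups of the human table (KDR and PECAM1) and the list summed to 9.31 ppm in laminin and 3.96 ppm in control tumours, with COL1A1, CD14 and ITGAM among the rises. In the mouse table Col1a1 (9604 ppm in laminin and 9737 ppm in control tumours) and Itgam (202.4 and 203.8 ppm) were alike in both groups. Cd14 was lower in laminin tumours (56.6 and 102.4 ppm). Whether marker signal in the table of the other species came from misassigned reads was not tested, nor was the part of such reads in the histone values. Whether the make-up of the host tissue differed between the groups was not tested either.

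In the tumour cells, 4 replication-dependent histone genes, HIST1H2AC, HIST1H2BD, HIST2H2BE and HIST1H1C, were higher in laminin tumours, and the other 8 with a mean level of 1 ppm or more did not pass the test. Of 71 replication-dependent genes 60 had signal, and 12 reached a mean of 1 ppm over both groups. All 12 had a ratio above 1, 4 rose past the threshold and 0 fell, which is read against 7.90% of the 15565 human genes tested at 1 ppm or more that rose and 3.69% that fell. The median log2 ratio of the 12 was 0.43, against -0.02 for all these genes. HIST1H4E and HIST1H2BC were under 1 ppm in control tumours and reached the mean through the laminin group, so the minimum itself favoured a ratio above 1 for them. Summed over all 71 genes, the level was 107.5 ppm in laminin and 71.4 ppm in control tumours, a log2 ratio of 0.59.

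The genes that rose encode H2A, H2B and a linker histone. HIST1H2AC (chromosome 6), which encodes a canonical H2A, had 31.8 ppm in laminin tumours and 17.7 ppm in control tumours. It was 1.80-fold higher, with p = 5e-05 in the authors' deposited table and an adjusted p of 0.00121. HIST1H2BD (chromosome 6), a canonical H2B gene, was at 8.50 and 4.42 ppm in laminin and control tumours. It was 1.93-fold higher, with the same p in the authors' deposited table and the same adjusted p. These were the largest ratios of the 4, and they rest on about 2523 against 1354 reads for HIST1H2AC and 675 against 339 reads for HIST1H2BD. The locus the authors give for HIST1H2BD is also that of LARP1P1, so the split of reads between them is uncertain. HIST2H2BE (chromosome 1), an H2B gene of another cluster, had 21.2 ppm in laminin and 12.8 ppm in control tumours, 1.65-fold higher with p = 5e-05 in the authors' deposited table and an adjusted p of 0.00121. HIST1H1C (chromosome 6), which encodes the linker histone H1.2, had 5.75 ppm in laminin and 3.51 ppm in control tumours, 1.64-fold higher with p = 0.00115 in the authors' deposited table and an adjusted p of 0.0182. It rests on about 457 against 269 reads. Linker histones bind the DNA between nucleosomes, while H2A and H2B are part of the nucleosome core, so the rise covered both kinds of histone.

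HIST1H2BK, another H2B gene known for poly-A transcripts, was at 17.5 ppm in laminin and 14.0 ppm in control tumours. Its ratio of 1.25 did not pass, with p = 0.0422 in the authors' deposited table and an adjusted p of 0.278. Its locus in the table is the same as that of HIST1H4I, so the split of reads between them is uncertain. Together these 5 genes held 78.9% of the class signal in laminin tumours and 73.4% in control tumours. The other 7 genes at 1 ppm or more were HIST3H2A, HIST4H4, HIST1H2BN, HIST1H2AG, HIST1H2BG, HIST1H4E and HIST1H2BC. Their log2 ratios lay between 0.29 and 0.56, and none passed the test. HIST3H2A, the second H2A gene by signal, had 3.11 ppm in laminin and 2.44 ppm in control tumours, with an adjusted p of 0.557 from the authors' p-values. The core H4 gene HIST4H4 (chromosome 12), which stands outside the large clusters, was at 2.28 ppm in laminin and 1.85 ppm in control tumours, with an adjusted p of 0.691 from the authors' p-values. HIST1H4E, the next H4 gene, had 1.34 and 0.911 ppm in laminin and control tumours, with an adjusted p of 0.406 from the authors' p-values.

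**Figure D1:**
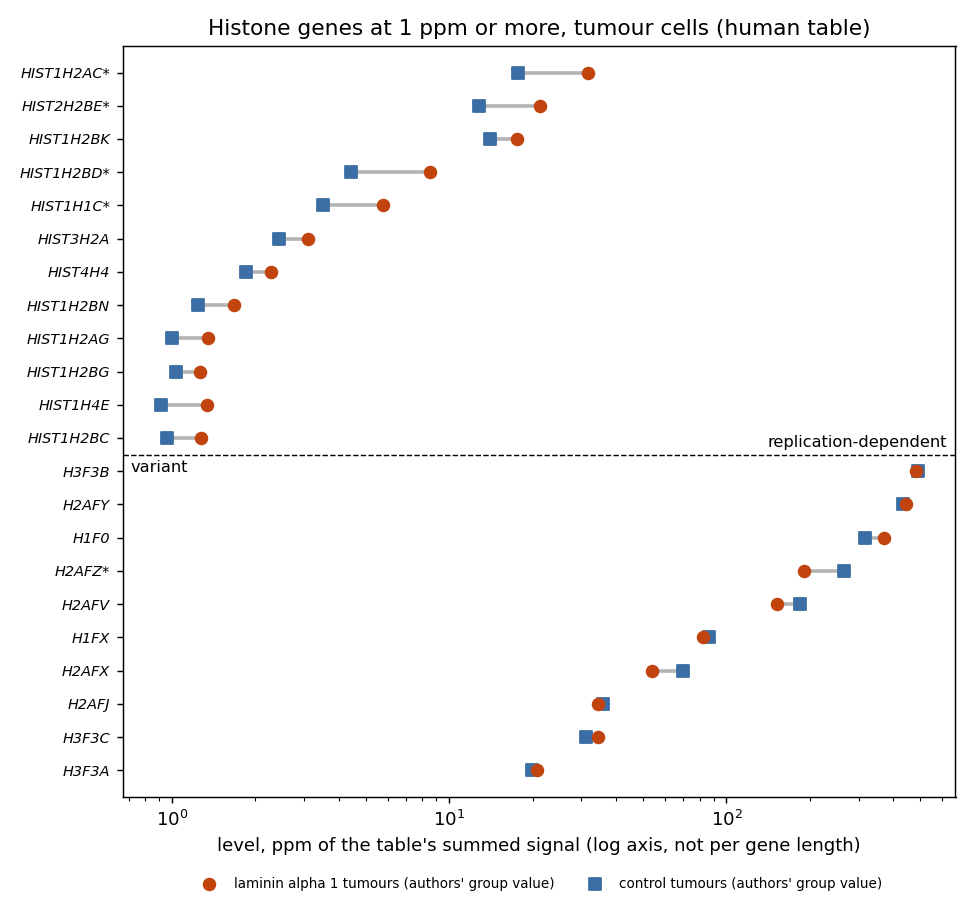
Level of each human replication-dependent (upper block) and variant (lower block) histone gene at a mean of 1 ppm or more, in ppm on a log axis, with the laminin value as a circle and the control value as a square; an asterisk marks genes past the threshold. All 12 replication-dependent genes lie to the right in laminin tumours, while 4 of the 10 variant genes do and H2AFZ, the variant with an asterisk, lies to the left.

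By family, the difference in summed level lay mostly in H2A and H2B. Replication-dependent H2A genes summed to 37.9 ppm in laminin and 22.7 ppm in control tumours, H2B genes to 54.9 and 37.8 ppm, and H1 genes to 6.65 and 4.34 ppm. HIST1H2AC alone gave 31.8 and 17.7 ppm of the H2A sums, and HIST1H1C 5.75 and 3.51 ppm of the H1 sums. H4 genes summed to 5.90 ppm in laminin and 4.32 ppm in control tumours, with no member past the threshold. H3 genes had 2.14 ppm in laminin and 2.23 ppm in control tumours and no member at 1 ppm. By cluster, the genes of the large chromosome 6 cluster (HIST1) summed to 79.7 ppm in laminin and 53.3 ppm in control tumours, and those of the HIST2 cluster on chromosome 1 to 22.2 and 13.6 ppm. The HIST2 sums were almost all HIST2H2BE (21.2 and 12.8 ppm), the only HIST2 gene at 1 ppm or more. The sums thus follow their highest genes and do not show that whole families or clusters rose.

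**Figure D2:**
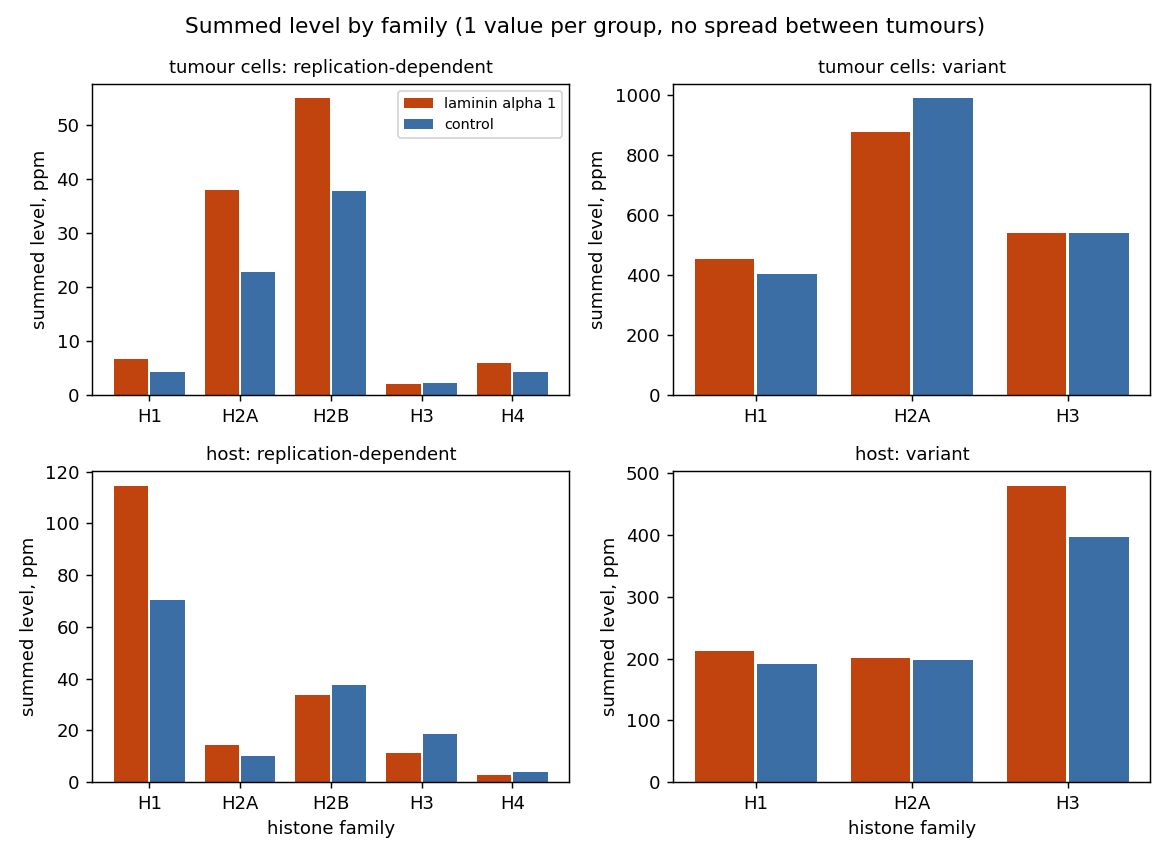
Summed level in ppm by histone family, for replication-dependent (left) and variant (right) genes of the human (top) and mouse (bottom) tables, with laminin tumours as the left bar and control tumours as the right bar of each pair. In the human replication-dependent panel the laminin bar is higher for H2A (37.9 against 22.7 ppm) and H2B (54.9 against 37.8 ppm), and in the mouse panel for H1 (114.6 against 70.5 ppm).

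The locus span that the authors give for the genes also differed with signal, a feature not used to choose them. Among human replication-dependent genes at 1 ppm or more, 9 of 12 had a locus longer than 1000 bases in the authors' table, against 12 of the 48 genes with less signal. The compact stem-loop form of a histone gene is far shorter than this. HIST1H2AC spanned 14972 bases, HIST1H2BD 13229, HIST1H2BK 8547 and HIST2H2BE 2223, while HIST1H1C spanned 732. RefSeq lengths were also long for HIST1H2BD (13229 bases), HIST1H2BK (8566) and HIST2H2BE (2224). They were short for HIST1H2AC (519), HIST1H2BN (542), HIST1H2AG (493), HIST4H4 (412) and HIST1H4E (412), whose long span thus depended on the annotation used. HIST1H2BC had no single RefSeq match. Since the values are not corrected for length and a locus can cover more than 1 gene (2 of the 12 and 9 of the 48 share one), this is a description.

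Replication-dependent genes with little signal did not move together. Of the 48 genes above 0 and below 1 ppm, 42 were tested, 20 with a ratio above 1 and 22 below, and their median log2 ratio was -0.05. They summed to 10.4 ppm in laminin and 9.54 ppm in control tumours. Their H3 genes had 3 ratios above and 7 below 1, with a median log2 ratio of -0.49, and their H4 genes had 7 above and 1 below 1, with a median of 1.43. These low H4 genes summed to 2.28 ppm in laminin and 1.56 ppm in control tumours, a log2 ratio of 0.54, and none passed. The tested ones ranged from about 3 against 0 reads (HIST2H4B) to 76 against 56 reads (HIST1H4H). A 0 in 1 group made the ratios of HIST2H4B and HIST1H3F infinite. HIST1H1E, the second H1 gene by signal, had 0.293 ppm in laminin and 0.394 ppm in control tumours, with an adjusted p of 0.842 from the authors' p-values. HIST1H3E and HIST1H3D, the H3 genes with the most signal, had 0.530 and 0.536 ppm in laminin tumours, against 0.569 and 0.397 ppm in control tumours, and neither passed. Counted with no minimum level, 4 of 54 tested replication-dependent genes rose and 1 fell, beside 5.63% and 2.45% of all 25838 tested human genes.

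The gene that fell, HIST1H3F, an H3 gene, was listed at 0 in laminin tumours and at 0.103 ppm in control tumours, with p = 0.00035 in the authors' deposited table and an adjusted p of 0.00677. Its control value corresponds to 8 reads, 1, 6 and 1 in the 3 control tumours. A single tumour thus held most of the reads behind this call. HIST1H4A, with a control value equal to 4 reads in 1 tumour, and HIST1H3A, with 2 reads, were also listed at 0 in laminin tumours and were not tested by the authors.

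Low values could be read tumour by tumour, because they are sums of 3 step sizes, and 1 step was read as 1 read of 1 tumour. The tumours are ordered by step size, and the steps cannot be matched to tumour names. For 33 replication-dependent human genes both group values split in a single way into whole reads, up to 25 per group. Together they held 54, 100 and 58 reads in the 3 laminin tumours, and 46, 130 and 69 reads in the 3 control tumours. In each group 1 tumour held more of these reads than either of the others, and the groups overlapped. Set to the table's scale, the sums were 1.95, 3.85 and 2.25 ppm in laminin tumours and 1.74, 4.99 and 2.83 ppm in control tumours.

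The pooled reads of low genes in general were split more evenly over the tumours than those of the 33 histone genes. For this, 2000 low human values were drawn at random in each group, with histone genes not left out. Of these, 1401 laminin and 1396 control values split in a single way, asked of that group alone. Over them the 3 laminin tumours held 35.3%, 32.7% and 32.0% of the reads and the 3 control tumours 33.9%, 32.5% and 33.6%. For the 33 histone genes the shares were 25.5%, 47.2% and 27.4% in laminin tumours and 18.8%, 53.1% and 28.2% in control tumours. The difference between these shares was not tested. The pools differ greatly in gene number, so the shares do not show how evenly single low genes were spread. HIST1H4C, for example, a core H4 gene, had 2, 2 and 2 reads in laminin tumours and 0, 13 and 3 reads in control tumours. HIST1H4B had 6, 13 and 0 reads in laminin tumours and 2, 1 and 1 in control tumours, so these H4 genes leaned opposite ways. HIST1H1B, an H1 gene of dividing cells, had 2, 6 and 7 reads in laminin tumours and 2, 19 and 2 in control tumours, with an adjusted p of 0.739 from the authors' p-values. HIST1H3C, an H3 gene, had 2, 0 and 2 reads in laminin tumours and 1, 8 and 6 in control tumours, with an adjusted p of 0.376 from the authors' p-values.

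**Figure D3:**
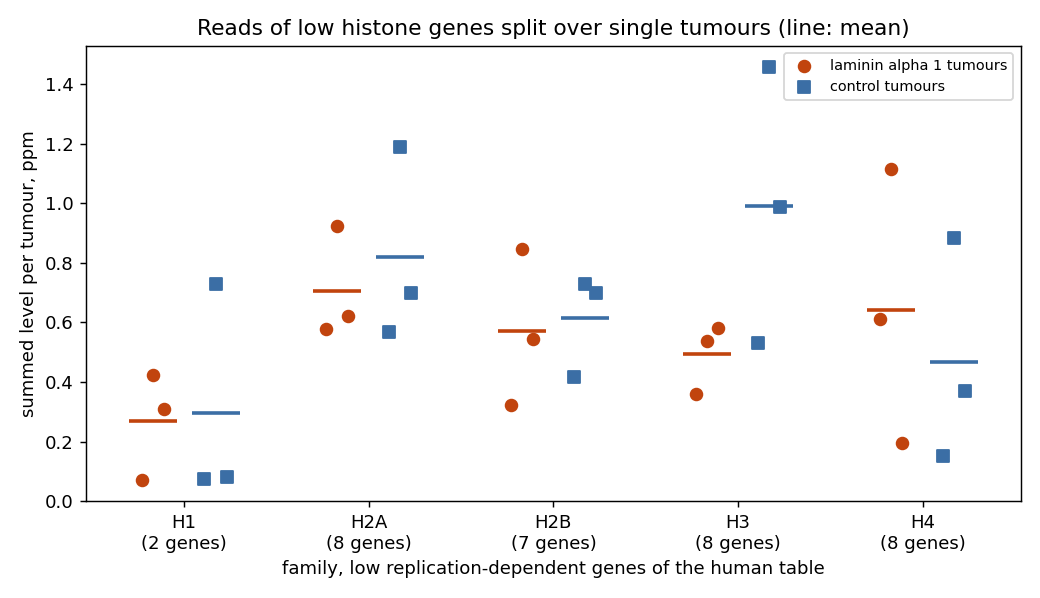
Summed level per tumour in ppm of the 33 low human replication-dependent genes whose reads could be split over tumours, by histone family, with laminin tumours as circles, control tumours as squares and group means as lines. The points of the groups overlap in each family, and for H3 the control tumours reach 1.46 ppm against 0.582 ppm in laminin tumours.

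Among the variant histone genes of the tumour cells, the H2A.Z gene H2AFZ fell in laminin tumours and no other passed the test. Of 16 variant genes 12 had signal and 10 reached 1 ppm. Of these 0 rose and 1 fell, beside 7.90% and 3.69% of all human genes at that level, and 4 ratios were above 1 and 6 below. Their median log2 ratio was -0.04, and the class summed to 1866 ppm in laminin and 1932 ppm in control tumours. The replication-dependent and variant classes were not tested against each other, since genes are not replicates and only group values exist.

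H2AFZ (chromosome 4), which encodes H2A.Z, a variant placed at promoters and regulatory sites, fell to 190.8 ppm in laminin tumours, against 265.1 ppm in control tumours. Its ratio was 0.720, with p = 0.00015 in the authors' deposited table and an adjusted p of 0.00327. The locus the authors' table gives for H2AFZ also holds DDIT4L and other genes. H2AFV (chromosome 7), which encodes the second H2A.Z protein, had 152.7 ppm in laminin and 184.0 ppm in control tumours and did not pass, with p = 0.0285 in the authors' deposited table and an adjusted p of 0.214. H2AFX (chromosome 11) encodes H2A.X, which is phosphorylated at DNA breaks, and its mRNA can end in a stem-loop or in a poly-A tail. It had 53.9 ppm in laminin and 69.7 ppm in control tumours, with p = 0.0052 in the authors' deposited table, and missed the threshold with an adjusted p of 0.0602. It passed, with an adjusted p of 0.0423, when the authors' p-values were adjusted over the genes at 1 ppm or more alone.

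None of the other variants passed the test. The H3.3 gene H3F3B (chromosome 17, at a locus shared with UNK) had 484.4 ppm in laminin and 489.0 ppm in control tumours, and H3F3A (chromosome 1), which encodes the same H3.3 protein, had 20.8 and 19.9 ppm. H3F3C, an intronless human copy of an H3.3 gene, had 34.4 ppm in laminin and 31.1 ppm in control tumours, and reads shared with its parent gene make this value uncertain. MacroH2A1 (H2AFY), a large H2A variant linked to silent chromatin, was at 442.6 and 433.1 ppm in laminin and control tumours, and H2AFJ at 34.5 and 35.9 ppm. The linker variant H1F0, which accumulates in cells that stop dividing or differentiate, had 370.0 ppm in laminin and 317.1 ppm in control tumours. It did not pass, with an adjusted p of 0.376 from the authors' p-values. H1FX, another linker variant, had 82.0 ppm in laminin and 86.6 ppm in control tumours. MacroH2A2 (H2AFY2) stayed under 1 ppm, at 0.452 and 0.299 ppm in laminin and control tumours. The germ cell variants H1FOO, H2AFB1, H2AFB2 and H2AFB3 were listed at 0 in both groups, and H1FNT had 2 reads in 1 laminin tumour.

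Listed at 0 in both groups were also 11 replication-dependent human genes. They included HIST2H2AA3 with HIST2H2AA4 and HIST2H3A with HIST2H3C, pairs of near-identical copies. How reads that fit both copies were counted is not given in the sources used here, so a 0 for these genes does not show that they were silent. The 18 entries set apart summed to 1.52 ppm in laminin and 1.14 ppm in control tumours, with none past the threshold and none at 1 ppm.

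Of the 3 related lists in the tumour cells, S-phase genes held most of the calls. Of 30 S-phase genes 18 fell and 0 rose, beside 3.69% and 7.90% of all human genes at 1 ppm or more, with a median log2 ratio of -0.53. Among those with the largest falls were E2F1 (37.3 ppm in laminin and 59.6 ppm in control tumours) and E2F2 (3.67 and 5.83 ppm), transcription factors of S-phase entry, the replication helicase gene MCM4 (208.2 and 332.5 ppm), the nucleotide reductase gene RRM2 (113.4 and 178.1 ppm) and the polymerase gene POLE (84.8 and 131.3 ppm). Their adjusted p from the authors' p-values was 0.00121 for E2F1, MCM4, RRM2 and POLE and 0.0225 for E2F2. The proliferation markers MKI67 (322.6 ppm in laminin and 471.3 ppm in control tumours) and TOP2A (266.3 and 358.9 ppm) also fell, with adjusted p of 0.00121 and 0.00914 from the authors' p-values. In bulk tumours fewer dividing cells and less RNA per dividing cell cannot be told apart, and the part of this difference in the histone values was not tested.

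Of 27 histone chaperone and deposition genes 3 fell and 0 rose, beside 3.69% and 7.90% of all human genes, and 24 of the 27 ratios were below 1, with a median log2 ratio of -0.21. NASP, which carries H3 and H4 in the cell, had 116.2 ppm in laminin and 159.6 ppm in control tumours, with an adjusted p of 0.00504 from the authors' p-values. ASF1B, which hands H3 and H4 to the replication fork machinery in dividing cells, had 29.7 and 40.0 ppm in laminin and control tumours, with an adjusted p of 0.0302 from the authors' p-values. NAP1L1, a carrier of H2A and H2B, had 290.9 and 382.0 ppm in laminin and control tumours, with an adjusted p of 0.0244 from the authors' p-values. The centromere H3 variant CENPA, whose symbol lies outside the histone pattern used here, was at 12.2 ppm in laminin and 17.3 ppm in control tumours and did not pass, with p = 0.0770 in the authors' deposited table and an adjusted p of 0.404.

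Of 27 genes of stem-loop processing and histone transcription 1 rose and 1 fell, beside 7.90% and 3.69% of all human genes, so the calls were no more frequent than over all genes. Of their ratios 22 were below 1, and the median log2 ratio was -0.21. SLBP, the protein bound to the stem-loop, had 92.7 ppm in laminin and 112.9 ppm in control tumours, with p = 0.0261 in the authors' deposited table and an adjusted p of 0.201. NPAT, the cyclin E target that switches on histone clusters, had 56.9 and 65.1 ppm in laminin and control tumours, with an adjusted p of 0.827 from the authors' p-values. UPF1, a helicase that takes part in the decay of stem-loop histone mRNA and in nonsense-mediated decay, rose to 128.9 ppm in laminin tumours, against 97.5 ppm in control tumours, with an adjusted p of 0.0220 from the authors' p-values. LSM5, a subunit of the Lsm ring that acts in mRNA decay and splicing, fell to 41.2 ppm in laminin tumours, against 57.2 ppm in control tumours, with an adjusted p of 0.00836 from the authors' p-values. The replication-dependent histone genes at 1 ppm or more thus had ratios above 1 in samples where most genes of these 3 lists had ratios below 1.

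**Figure D4:**
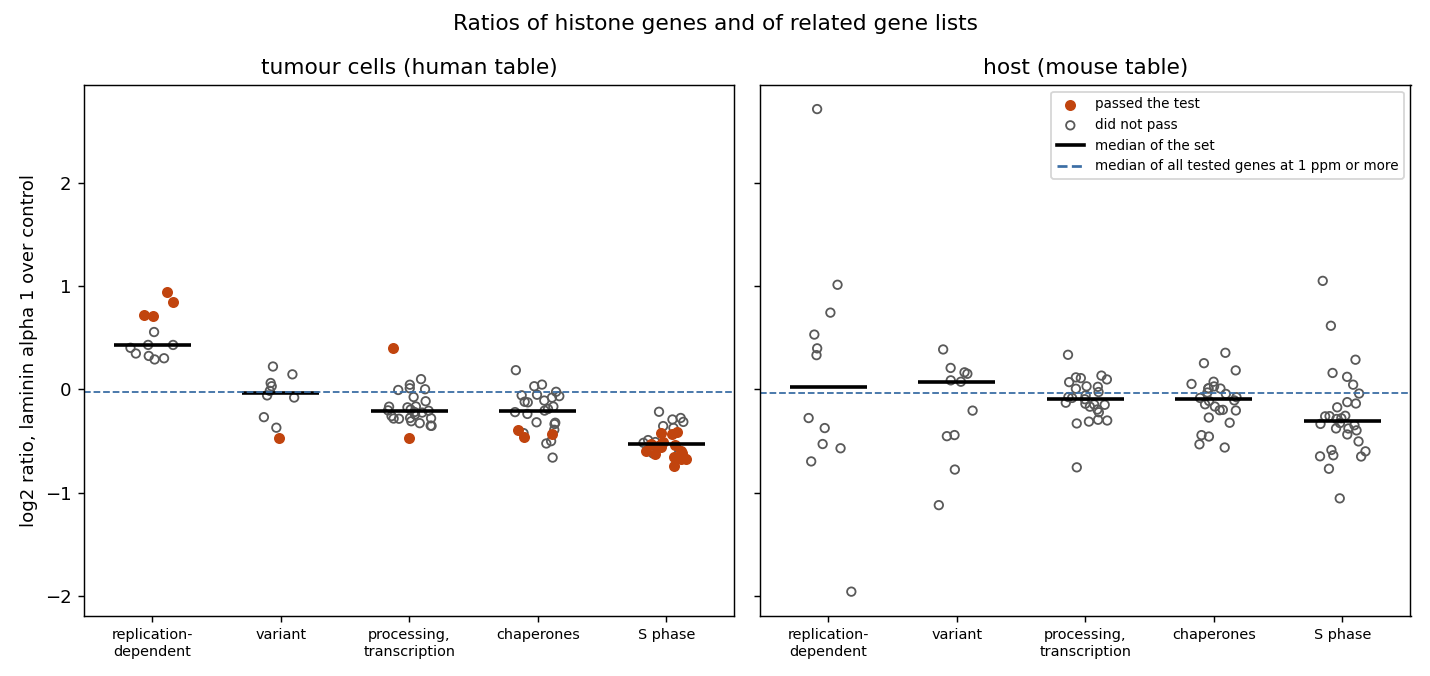
Log2 ratio of laminin over control for histone genes and 3 related lists at 1 ppm or more, in the human table (left) and the mouse table (right); filled points passed the test, black bars are set medians and the dashed line is the median of all tested genes at that level. In the human panel the replication-dependent genes have a median of 0.43 and the S-phase genes one of -0.53, while in the mouse panel no point is filled.

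In the host, no histone gene passed the test. Of 68 replication-dependent mouse genes 27 had signal and 12 reached 1 ppm, of which 0 rose and 0 fell by the authors' test, whose table has the columns of Cuffdiff, beside 0.589% and 3.00% of the 13757 mouse genes tested at 1 ppm or more. At an unadjusted p under 0.05, 1 of the 12 differed. With no minimum level 23 were tested and 0 rose or fell, beside 0.579% and 2.96% of all 14339 tested mouse genes, and 2 had an unadjusted p under 0.05. The 12 genes at 1 ppm or more had 6 ratios above 1 and 6 below 1, with a median log2 ratio of 0.03, against -0.03 for all mouse genes at that level. Hist1h2ac and Hist1h2bg were under 1 ppm in control tumours, and Hist1h1e and the variant H2afy3 were under 1 ppm in laminin tumours. They reached the mean through the other group, so the minimum itself favoured the side of 1 on which their ratios lie. Of 17 variant genes 11 reached 1 ppm, 0 passed and 0 had an unadjusted p under 0.05, with a median log2 ratio of 0.07.

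The gene with the unadjusted p under 0.05 was Hist1h1c (mm10 chromosome 13, 23738807 to 23740367), the mouse H1.2 gene. It had 111.8 ppm in laminin and 66.7 ppm in control tumours, and missed the threshold, since the authors' deposited table gives q = 0.0932 beside a p of 0.00405. Its ratio of 1.68 rests on about 638 against 436 reads, of which the laminin number is a rough estimate. The human gene of the same protein, HIST1H1C, had a ratio of 1.64 in the same tumours, on about 457 against 269 reads. The 2 tables share the tumours but not the genes or the scale. Whether reads of 1 species were counted for the other in these 2 genes was not tested. Their ratios are therefore not shown to be independent of each other. Mouse Hist1h1c held 63.2% of the signal of its class in laminin tumours and 47.4% in control tumours. The class as a whole summed to 176.9 ppm in laminin and 140.6 ppm in control tumours.

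Other host replication-dependent genes had less signal and did not pass. Hist1h2bc (chromosome 13, 23684199 to 23692480), an H2B gene, had 24.9 ppm in laminin and 30.2 ppm in control tumours, with q = 0.960 in the authors' deposited table. Hist2h3c1 (chromosome 3, 96246685 to 96248509), an H3 gene, had 9.80 and 15.9 ppm in laminin and control tumours, with q = 0.703 in the authors' deposited table. Hist3h2a (chromosome 11, 58954685 to 58956674), an H2A gene, had 11.8 ppm in laminin and 9.34 ppm in control tumours, with q = 0.984 in the authors' deposited table. Families thus leaned in different directions without passing the test. Hist2h2be, an H2B gene, had 4.24 ppm in laminin and 3.22 ppm in control tumours, on 24.2 and 21.0 estimated reads. Hist1h2ac, an H2A gene, had 4, 2 and 5 reads in laminin tumours and 1, 0 and 1 reads in control tumours, with q = 0.796 in the authors' deposited table. Hist2h3c2, another H3 gene, had 8, 3 and 1 reads in laminin tumours and 10, 3 and 2 in control tumours, so the spread within each group exceeded the difference between them. Hist1h1d was at 2.21 ppm in laminin and 1.53 ppm in control tumours, Hist1h4i at 2.24 and 2.90 ppm, and Hist1h4h under 1 ppm at 0.169 and 0.307 ppm. None of these passed.

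Of the 68 replication-dependent mouse genes 41 were listed at 0 in both groups. At the depth of the mouse table, where 1 read in 1 tumour was worth 0.103 to 0.254 ppm in laminin and 0.152 to 0.155 ppm in control tumours, such a 0 does not show that a gene was silent. The 20 mouse genes whose values split into whole reads held 34, 16 and 23 reads in laminin tumours and 31, 21 and 17 reads in control tumours. The mouse laminin tumours differed in depth by their read steps, so these reads correspond to 10.5, 8.10 and 17.5 ppm, against 14.1, 9.62 and 7.89 ppm in control tumours, and the groups overlapped. The 20 genes' read shares were 46.6%, 21.9% and 31.5% in laminin tumours and 44.9%, 30.4% and 24.6% in control tumours. Over low mouse genes in general they were 47.5%, 31.0% and 21.6% in laminin tumours and 25.9%, 30.2% and 43.8% in control tumours. The control order was thus reversed, and the difference was not tested.

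**Figure D5:**
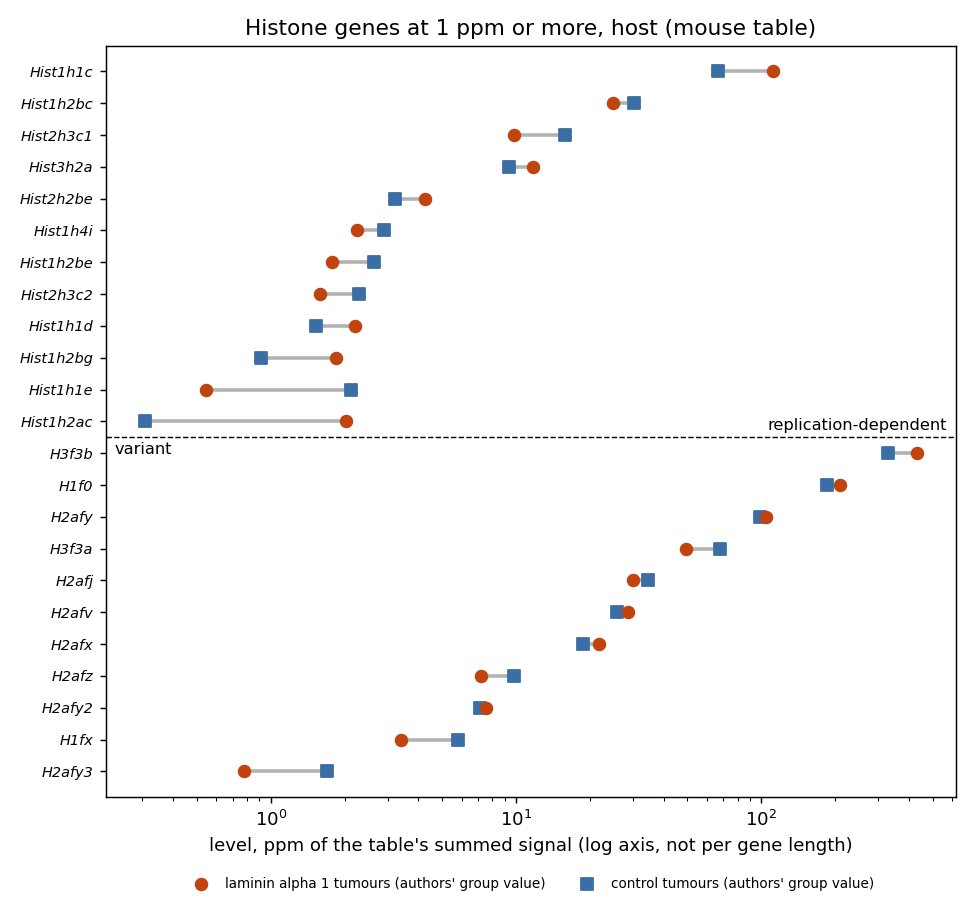
Level of each mouse replication-dependent (upper block) and variant (lower block) histone gene at a mean of 1 ppm or more, in ppm on a log axis, with the laminin value as a circle and the control value as a square; no gene passed the threshold. Hist1h1c lies to the right in laminin tumours (111.8 against 66.7 ppm), and genes near 1 ppm rest on few reads.

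Host variant genes did not pass the test, the H3.3 genes among them. H3f3b (chromosome 11, 116021961 to 116024504), an H3.3 gene, had 430.8 ppm in laminin and 329.3 ppm in control tumours, with q = 0.796 in the authors' deposited table. H3f3a (chromosome 1, 180802568 to 180813603), the other H3.3 gene, had 49.4 and 67.6 ppm in laminin and control tumours, with q = 0.614 in the authors' deposited table. These H3.3 genes thus had ratios on opposite sides of 1. H1f0 was at 208.6 ppm in laminin and 185.9 ppm in control tumours, H2afy at 104.4 and 99.2 ppm, H2afj at 30.0 and 34.6 ppm, H2afv at 28.7 and 25.9 ppm and H2afx at 21.8 and 18.8 ppm. H2afz (chromosome 3, 137864599 to 137866922) had 7.20 ppm in laminin and 9.79 ppm in control tumours, a log2 ratio of -0.44 with q = 0.960 in the authors' deposited table, beside -0.47 for H2AFZ in the tumour cells. H2afy2 had 7.57 and 7.12 ppm and H1fx 3.39 and 5.81 ppm in laminin and control tumours. The entry H2afy3 had 0.777 and 1.69 ppm in laminin and control tumours, and its locus in the table is that of the noncoding gene Pvt1.

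The related host lists gave 0 calls in the mouse table by the authors' test. Of the 13757 mouse genes tested at 1 ppm or more, 0.589% rose and 3.00% fell, so 0 calls in lists of this size says little. Of the tested list genes, 26 of stem-loop processing and histone transcription had a median log2 ratio of -0.09, 26 of chaperones and deposition one of -0.09 and 30 of S phase one of -0.31. In these lists 0, 0 and 2 genes had an unadjusted p under 0.05. Mcm3, a helicase subunit gene and 1 of these 2, had 30.5 ppm in laminin and 47.8 ppm in control tumours. Slbp had 25.4 ppm in laminin and 32.0 ppm in control tumours, Npat 29.5 and 29.4 ppm, and Cenpa 24.2 and 20.3 ppm. The proliferation markers Mki67 (103.1 ppm in laminin and 113.0 ppm in control tumours) and Top2a (67.5 and 92.3 ppm) did not pass either. Whether the difference between the groups was itself different in tumour cells and host was not tested.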

How the data were processed

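Per the labels' protocols, poly-A mRNA was captured on oligo-dT beads, fragmented, primed at random and built into libraries by a modified Illumina TruSeq protocol. No strand-keeping step is described. The submitters' processing notes list TopHat2 and Cufflinks as tools and hg38 (human) and mm10 (mouse) as builds, without roles or options. How reads were assigned to a species is not given there either, and histone coding sequences are much alike in both species. Per the file headers, the authors deposited 1 signal value per gene and group, a log2 ratio and a p-value. Only the mouse table deposited by the authors adds a q-value. Values were divided by the mean of both groups' summed signal of the table (890.6 laminin and 893.1 control in the human table, 951.0 and 968.9 in the mouse table, in units of 1000000). Human p-values were adjusted by Benjamini-Hochberg in Python 3.11.15 with numpy 2.4.6. This adjustment and the reading of steps were tested on simulated data. In each group 2000 table values of up to 25 reads were tried; 70.0% (laminin) and 69.8% (control) of human and 88.5% and 92.8% of mouse values were whole reads, against at most 1.90% of shifted values. Of 99 human genes matched to 1 RefSeq gene (GRCh38.p14), 99 lay on the same chromosome and 0 started within 100 bases, so human coordinates are not printed. RefSeq biotypes set human pseudogenes apart, while mouse entries were set apart by symbol alone. A mouse pseudogene without such a symbol would have stayed in its class. The members and lists were chosen with earlier results of these data known. Named were genes past the threshold, all variants at 1 ppm or more, SLBP, NPAT and CENPA, up to 6 list genes per direction (1 S-phase gene is not reported here), and the 2 genes of most signal per family; further low genes named with reads were chosen after their values were seen. Designed tests on counts, leaving out tumours and sequence features were not run, since the values are per group and no sequence was at hand.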

Additional observations from a re-analysis of the deposited data

How the results depend on the processing

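The values are per group, so no tumour could be left out and no count test was run; reads per tumour could be split for low genes alone. No paired analysis was possible because the values are per group and the labels number no pairs. In the human replication-dependent class the count of rises was 3 or 4 under every alternative tried. HIST1H1C missed a threshold of 0.01 (adjusted p = 0.0182, Benjamini-Hochberg on the authors' p-values), and its mean level is under 5 ppm. The count of falls went to 1 with no minimum level, also with pseudogenes added (an alternative chosen after seeing the data). The class median was 0.30 with no minimum, 0.31 with pseudogenes, 0.78 at 5 ppm or more and 0.27 with 1 ppm added, and the log2 ratio of the summed level was 0.19 with H2AFX counted in. Falls among human variants were 2 when adjusted over genes at 1 ppm or more. At a threshold of 0.01, rises in the processing list were 0 and falls in the chaperone list 1. In the mouse replication-dependent class the median turned to -0.37 with no minimum and to -0.28 without Hist1h1c, and was 0.21 with H2afx; without Hist1h1c the log2 ratio of the summed level turned to -0.18. The mouse variant median turned to -0.065 without H2afx or without H3f3b, and without H3f3b the log2 ratio of the summed level was 0.017. The other 139 class and list values moved by at most 0.1 (medians and ratios, log2) or 1.5 times (counts).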
